A study of Mus musculus with 2 samples.

Results

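Respiratory complex I was measured through the genes that encode its nuclear subunits. Its members were the probes whose platform gene symbol starts with Ndufa, Ndufb, Ndufc, Ndufs or Ndufv and goes on with a number, which leaves out the Ndufaf assembly factors, and the brightest probe stood for each gene. The rule found 33 genes on 34 probes, of 16390 genes named on the array. All 33 gave a signal above the blank spots in all 4 hearts. Some other subunit genes, among them the mitochondrially encoded ND genes, were not analysed here.

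RNA of whole hearts was hybridised to 2 two-colour oligonucleotide arrays, which asked how the cardiac response to caloric restriction (CR, by 40%) differs when cardiomyocytes lack Sirt1, an NAD-dependent deacetylase. The groups were cardiomyocyte-specific Sirt1 knockout mice under CR, knockout mice fed ad libitum (AL), control mice under CR and control mice under AL, each represented by 1 heart. All 4 mice were males of the C57BL/6J background, 6 months old, and had been on their diet for 3 months. The driver of the deletion and the floxed or Cre alleles that the controls may carry were not stated in the labels. The CR heart carried Cy3 and the AL heart Cy5 on both arrays, so that diet and dye cannot be told apart, and each genotype had its own array, so that genotype and array cannot be told apart.

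With 1 heart per condition, no difference here has a replicate check or a p-value. Values are log2 signals of a probe, and differences of them are log2 ratios. A ratio of at least 1.5-fold, 0.58 on the log2 scale, is called past the fold. Spots of 2 positive controls, 24 of each, show how far ratios scatter between spots of the same probe. Their larger SD was 0.09 for CR over AL on the knockout array, 0.06 on the control array and 0.08 for the difference between the arrays. It was 0.16 for knockout over control under CR and 0.18 under AL. These SDs describe scatter between spots, which says nothing of how mice differ.

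Complex I is the largest enzyme of the mitochondrial respiratory chain. It takes electrons from NADH in its N module, hands them along iron-sulfur clusters to ubiquinone in its Q module, and uses the energy to pump protons through its membrane arm, which has a proximal and a distal part. Around the conserved core subunits lie accessory subunits that stabilise the enzyme and are needed for its assembly. Heart muscle is rich in it, and PGC-1 coactivators, which Sirt1 can deacetylate, together with NRF1, GABP (an ETS factor) and the estrogen-related receptors (ERR) are known regulators of its nuclear genes.

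The stretches upstream of the genes are shown because the members moved in different directions and these factors act there. Windows of 250 bases before the gene start were taken from RefSeq (GRCm38.p6). They were found for 30 of the 33 genes. The NRF1 motif GCGCANGCG, searched on both strands, was in 6 of the 30 genes, Ndufa5, Ndufa8, Ndufa11, Ndufb4, Ndufs5 and Ndufs6, which is 20.0% of them. Some genes have more than 1 window. Counted by window, it was in 7 of the members' 32, against 5.16% of 32851 windows. The ERR motif TGACCTT was in 3 genes, Ndufb2, Ndufb4 and Ndufs5 (3 of the 32 windows, against 4.08% of all windows). The ETS motif CCGGAAG was in 2 genes, Ndufb7 and Ndufs3 (2 of the 32 windows, against 6.91% of all windows). The YY1 motif AAGATGGCG was in 0 of 30 genes (0.606% of all windows). Matches of different motifs overlapped in none of the windows. The members' windows were richer in G and C, with a median of 57.8% over 32 windows against 52.4% in all, and this was not adjusted for. A match is a description of letters and not a binding site.

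The windows of 3 genes with different values in the hearts follow, with motif matches in capitals. Ndufb4 (chr16:37654369-37654618, minus strand) was the member furthest above 0 for CR over AL on both arrays. It has 3 NRF1 matches, which start 191, 79 and 22 bases before the gene start, and an ERR match on the opposite strand that starts at 55. Ndufs6 (chr13:73328483-73328732, minus strand) was among the 3 furthest below 0 on both arrays, and its NRF1 match, on the opposite strand, starts 15 bases before the gene start. Ndufv1 (chr19:4012756-4013005, minus strand) was above 0 in each of the 4 ratios between hearts, of which CR over AL in the knockout hearts and knockout over control under CR fell below 0 once the brightness around the spot was subtracted, and it has no match.
Ndufb4: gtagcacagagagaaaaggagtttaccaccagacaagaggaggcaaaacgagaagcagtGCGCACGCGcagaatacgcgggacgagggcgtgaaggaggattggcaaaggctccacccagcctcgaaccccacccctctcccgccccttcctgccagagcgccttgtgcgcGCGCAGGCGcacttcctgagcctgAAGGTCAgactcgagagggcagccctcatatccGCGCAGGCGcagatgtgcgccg
Ndufs6: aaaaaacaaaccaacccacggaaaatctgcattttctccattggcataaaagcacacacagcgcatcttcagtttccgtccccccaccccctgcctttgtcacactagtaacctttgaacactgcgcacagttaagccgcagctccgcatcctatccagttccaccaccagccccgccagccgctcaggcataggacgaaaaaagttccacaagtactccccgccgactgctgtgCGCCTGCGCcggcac
Ndufv1: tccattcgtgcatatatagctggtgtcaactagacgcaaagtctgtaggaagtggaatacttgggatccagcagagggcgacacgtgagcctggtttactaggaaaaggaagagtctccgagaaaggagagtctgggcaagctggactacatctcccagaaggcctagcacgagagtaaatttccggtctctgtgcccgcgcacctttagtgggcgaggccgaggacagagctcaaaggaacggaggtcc
The NRF1 motif thus stood upstream of a gene with higher and of genes with lower CR signals: of its 6 carriers, Ndufb4 lay above 0 on both arrays, Ndufa8 had opposite signs, and Ndufa5, Ndufa11, Ndufs5 and Ndufs6 lay below 0 on both.

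Most complex I probes were bright. Of the 33 genes, 30 were in the brightest 10% of genes and 29 at or above the 95th percentile, while Ndufb2, Ndufc1 and Ndufa3, at the 62.6, 53.9 and 34.6 percentiles, were dim. The highest raw signal of a member was 21587 scanner units, under the 60000 used as the scanner limit. The median log2 signal of the 33 genes was 12.80 in the knockout CR heart, 12.84 in the knockout AL heart, 12.52 in the control CR heart and 12.61 in the control AL heart. Their summed signal over the blanks was 5.29% of that of all genes in the knockout CR heart, 5.38% in the knockout AL heart, 5.64% in the control CR heart and 6.42% in the control AL heart. In whole hearts, fewer cells of a type and less RNA per cell cannot be told apart.

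After scaling between the arrays, the highest value of the 4 lay in the knockout CR heart for 4 of the 33 genes, in the knockout AL heart for 8, in the control CR heart for 5 and in the control AL heart for 16. The lowest lay in the knockout CR heart for 16 genes, in the knockout AL heart for 6, in the control CR heart for 5 and in the control AL heart for 6. Measured from each gene's mean over the hearts, the median position was -0.11 in the knockout CR heart, 0.01 in the knockout AL heart, -0.04 in the control CR heart and 0.13 in the control AL heart. The control AL heart was also most often highest with the arrays scaled to a common median signal (22 of 33) and with the brightness around each spot subtracted (14 of 33). The lowest place went to the knockout CR heart for 20 genes with median scaling, but with subtraction it went to the knockout CR heart for 9, the knockout AL heart for 10 and the control CR heart for 11. No such counts over all genes are given here, so this order does not set complex I apart from other genes.

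**Figure D1:**
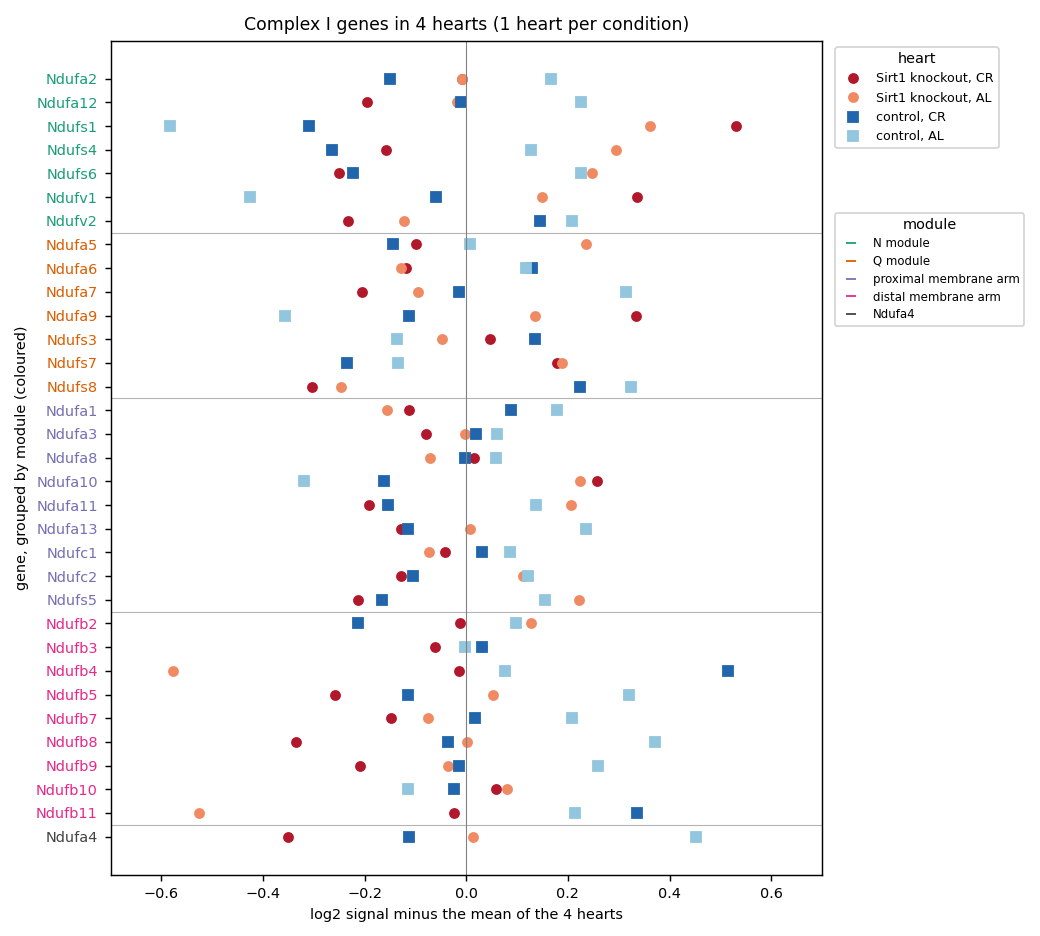
Each row is a complex I gene and each point a heart, placed by its log2 signal minus the gene's mean over the 4 hearts. Rows are coloured by module, and 1 heart was measured per condition. The knockout CR circles lie furthest left for 16 of the 33 genes and the control AL squares furthest right for 16, while Ndufs1, Ndufv1, Ndufa9 and Ndufa10 show the knockout circles on the right. The same counts over all genes are not given.

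With CR, more complex I genes had lower than higher signals in both genotypes, by little for each gene, but in the knockout hearts this turned with the scaling. There 14 of 33 were below 0 with median centring in place of loess, against 48.0% of all genes. With the local background subtracted 15 were, against 53.7% of all genes. In the knockout hearts 22 of the 33 genes were below 0 for CR over AL, against 49.9% of all genes compared, with a median of -0.08. In the control hearts 23 of the 33 were below 0, against 48.6% of all genes, with a median of -0.10. No member was past the fold in the knockout hearts, where 1.53% of all genes were, or in the control hearts, where 1.16% were. Among the other 1605 genes of the brightest 10%, the medians were 0.00 in the knockout hearts and 0.02 in the control hearts.

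Of the N module, which binds NADH, the accessory subunits Ndufs6 and Ndufs4 were lower with CR on both arrays. Ndufs6, a zinc-binding subunit, had log2 signals of 13.50 under CR and 14.00 under AL in the knockout hearts, and of 13.53 under CR and 13.98 under AL in the control hearts. Its CR over AL values were -0.50 in the knockout hearts and -0.45 in the control hearts, beyond the SD of the control spots. Both CR hearts lay below both AL hearts.

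Ndufs4, whose loss causes Leigh syndrome in humans and a like disease in mice, had 11.98 under CR and 12.44 under AL in the knockout hearts, and 11.88 under CR and 12.27 under AL in the control hearts. These are CR over AL values of -0.45 and -0.39, and the CR hearts again lay below the AL hearts. With the local background subtracted, the value in the knockout hearts was 0.06. The N module's core subunits did not go that way together.

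Ndufv1, which holds the FMN that accepts electrons from NADH, had 12.80 under CR and 12.62 under AL in the knockout hearts, and 12.41 under CR and 12.04 under AL in the control hearts. For CR over AL this gives 0.19 in the knockout hearts and 0.36 in the control hearts, but the value in the knockout hearts turned to -0.45 with the local background subtracted. Ndufs1, the largest iron-sulfur subunit of the N module, was at 0.17 in the knockout hearts and 0.27 in the control hearts, while the iron-sulfur subunit Ndufv2 was at -0.11 and -0.06 (0.08 in the control hearts with the local background subtracted). The accessory Ndufa12 was at -0.18 and -0.24.

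In the Q module, the core subunit Ndufs3 had 13.48 under CR and 13.39 under AL in the knockout hearts, and 13.57 under CR and 13.30 under AL in the control hearts. Its CR over AL values were 0.09 and 0.27, and both fell below 0 with the local background subtracted, at -0.33 in the knockout hearts and -0.04 in the control hearts. Ndufa9, an accessory subunit at the joint between the arms, had 12.94 under CR and 12.74 under AL in the knockout hearts, and 12.49 under CR and 12.25 under AL in the control hearts, or 0.20 and 0.24 for CR over AL. Ndufa5, another accessory subunit of this module, was lower with CR at -0.34 and -0.15. The Q module's 7 genes ranged from -0.34 to 0.20 in the knockout hearts and from -0.33 to 0.27 in the control hearts.

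In the proximal membrane arm, Ndufs5 had 12.47 under CR and 12.91 under AL in the knockout hearts, and 12.52 under CR and 12.84 under AL in the control hearts. The ratios were -0.43 and -0.32, both CR hearts lying below both AL hearts. A second, dimmer Ndufs5 probe disagreed, with 0.04 and 0.03. The gene table of GRCm38.p6 lists a transcribed pseudogene, Ndufs5-ps, and which of these transcripts each probe measures was not tested. Ndufa11, needed for the assembly of the membrane arm, was at -0.40 and -0.29, but at 0.23 in the knockout hearts with the local background subtracted. Of the 9 genes of this part, 5 were below 0 in the knockout hearts and 8 in the control hearts.

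In the distal membrane arm, Ndufb4 was the member with the highest CR over AL value on both arrays. It had 12.14 under CR and 11.58 under AL in the knockout hearts, and 12.67 under CR and 12.23 under AL in the control hearts. The values of 0.56 and 0.44 were just under the fold, and 1.04 and 0.78 with the local background subtracted. The gene table also lists the copies Ndufb4b and Ndufb4c, and whether the probe tells them apart was not tested. Ndufb11, a gene on the X chromosome mutations of which cause a heart muscle disease in humans, had 9.03 under CR and 8.53 under AL in the knockout hearts, and 9.39 under CR and 9.26 under AL in the control hearts. Its CR over AL values were 0.50 and 0.12.

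Other distal subunits were lower with CR. Ndufb5 had 9.65 under CR and 9.96 under AL in the knockout hearts, and 9.79 under CR and 10.23 under AL in the control hearts, or -0.31 and -0.43. Ndufb8 was at -0.34 and -0.41, and Ndufb9 at -0.17 and -0.27, with Ndufb9 at 0.68 in the knockout hearts after subtraction of the local background. The distal arm had 7 of its 9 genes below 0 in the knockout hearts and 5 in the control hearts.

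Ndufa4, named as a complex I subunit but since assigned to cytochrome c oxidase, was the lowest gene with CR in the control hearts. It had 13.43 under CR and 13.79 under AL in the knockout hearts, and 13.67 under CR and 14.23 under AL in the control hearts, or -0.36 and -0.56 for CR over AL. Its value in the control hearts stayed between -0.83 and -0.53 under the 9 settings tried. In the knockout hearts it was 1.96 with the local background subtracted. Without Ndufa4 the medians of the 32 other genes were -0.07 in the knockout hearts and -0.10 in the control hearts.

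Set across the arrays, both CR hearts lay below both AL hearts for 12 of the 33 genes, against 17.7% of all genes detected in the 4 hearts. These were Ndufa2, Ndufa4, Ndufa5, Ndufa11, Ndufa13, Ndufb2, Ndufb5, Ndufb8, Ndufc2, Ndufs4, Ndufs5 and Ndufs6. Both CR hearts lay above both AL hearts for 1 gene, Ndufs3, against 17.7% of all genes. For the other 20 the diets overlapped.

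Of the 33 genes, 20 were below 0 with CR on both arrays and 8 above 0 on both: Ndufa6, Ndufa9, Ndufa10, Ndufb4, Ndufb11, Ndufs1, Ndufs3 and Ndufv1. The other 5 had opposite signs. Of all 11701 genes measured in the 4 hearts, 33.5% were below 0 on both arrays, 33.5% above 0 on both and 33.0% had opposite signs. Across the 33 genes the values of the arrays had a Pearson r of 0.83 and a Spearman rho of 0.85, against 0.59 and 0.54 across all those genes. Genes are not independent replicates, and both arrays share the probes and the dye of each diet, which may share a bias. With the local background subtracted, r was 0.02 and 17 of the 33 genes had opposite signs, and the same over all genes is not given here. That r includes Ndufa13, at -4.91 in the control hearts. The brightness around its spot was 100.5% of the spot's own in the control CR heart, so that subtraction left no signal there. The Pearson r was 0.84 with each array centred on its median in place of loess, and 0.77 with the ratios of the authors' deposited table.

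**Figure D2:**
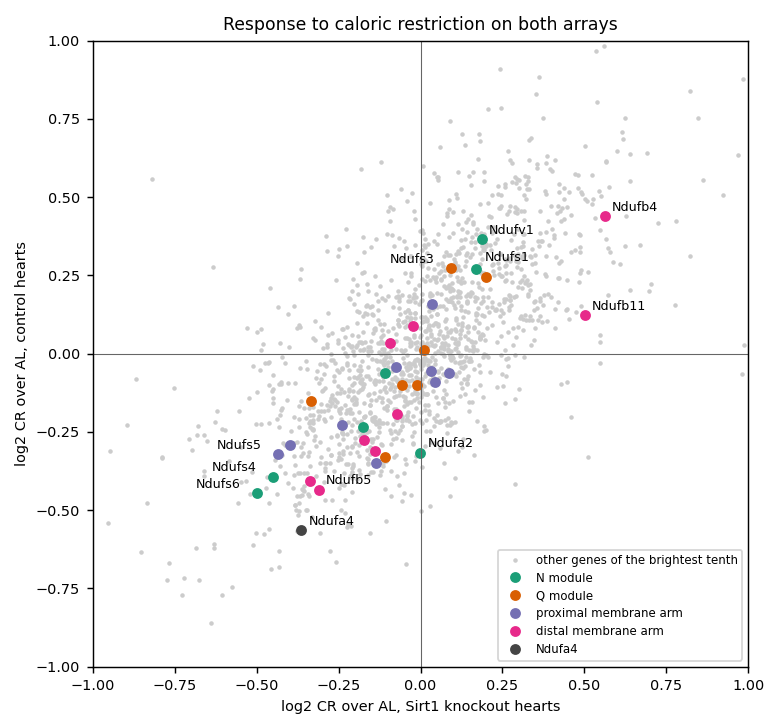
Log2 CR over AL of each complex I gene in the knockout hearts (horizontal) and in the control hearts (vertical), coloured by module, over the other genes of the brightest 10% (grey, 1582 of 1605 shown and 23 outside the axes). Of the 33 genes, 20 lie at the lower left of the crossing lines and 8 at the upper right, with Ndufb4 at the top right and Ndufa4, Ndufs6 and Ndufs4 at the lower left.

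With loess and without subtraction of the local background, the response to restriction differed little between the genotypes for these genes. The knockout minus control difference of the log2 CR over AL values had a median of 0.04, and 16 of the 33 genes were below 0, against 51% of all genes. None was past the fold, against 0.914% of all genes. A dye bias equal on both arrays cancels in this difference.

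Ndufb11 had the highest difference at 0.38, from 0.50 in the knockout hearts and 0.12 in the control hearts. With the local background subtracted it was 0.01, but subtraction left no signal of Ndufb11 in the knockout hearts. The brightness around its spot was 100.8% of the spot's own under CR there and 104.1% under AL. Ndufa2, an accessory subunit of the N module, followed at 0.32, with log2 signals of 13.61 under CR and 13.61 under AL in the knockout hearts, and 13.46 under CR and 13.78 under AL in the control hearts. The control CR heart was thus the lowest and the control AL heart the highest for Ndufa2, with equal knockout hearts between them.

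Ndufa7, an accessory subunit of the Q module, had a difference of 0.22, with 11.63 under CR and 11.74 under AL in the knockout hearts, and 11.82 under CR and 12.15 under AL in the control hearts. At the other end, Ndufa5, Ndufs3 and Ndufv1 were each at -0.18. After subtraction of the local background these differences were 0.26 for Ndufa5, -0.29 for Ndufs3 and -0.81 for Ndufv1, and that of Ndufa7 was 0.85. Ndufa5 had 13.86 under CR and 14.20 under AL in the knockout hearts, and 13.82 under CR and 13.97 under AL in the control hearts. In the distal membrane arm the median difference was 0.12, with 7 of 9 genes above 0, and in the N module it was -0.05, with 2 of 7 above 0.

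This comparison depended on the processing. With the local background subtracted, 10 of 33 differences were past the fold, against 5.47% of all genes and 27% of the other genes of the brightest 10%. With each array centred on its median in place of loess, the members' median was 0.09 and 24 of 33 were above 0, while 60.6% of all genes were below 0. In the authors' deposited table the median difference was 0.24, with 32 of 33 genes above 0 and Ndufa3 as the exception. In that table the other genes of the brightest 10% also had a positive median, of 0.10.

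Between the genotypes, complex I genes spread further than with diet, from -0.53 to 0.84 under CR and from -0.74 to 0.94 under AL, and core subunits stood at both ends. Genotype ratios compare 2 arrays, where the control-spot SD was 0.16 and 0.18, against 0.09 and 0.06 within an array. All genes spread further too: 2.53% and 4.37% were past the fold between genotypes under CR and AL, against 1.53% and 1.16% with diet. Under CR the knockout over control median was -0.07 and 22 of the 33 genes were below 0, against 49.1% of all genes. Under AL the median was -0.13 and 19 were below 0, against 47.5%. With the arrays scaled to a common median signal, 27 of 33 were below 0 under CR and 28 under AL. Of all genes, 53.7% and 49.1% were. The other genes of the brightest 10% then had medians of -0.17 and -0.14, with 70.2% and 63.6% below 0.

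Under CR only Ndufs1 of the 33 was past the fold, upward, against 1.45% of all genes upward and 2.53% in either direction. Under AL, 3 of 33 genes were past the fold, against 4.37% of all genes. Ndufs1 was higher, where 2.6% of all genes were, and Ndufb11 and Ndufb4 were lower, where 1.78% of all genes were. Bright genes were more often past the fold. Among the other 1605 genes of the brightest 10%, 10.7% were past it upward and 6.54% downward under AL. Under CR these shares were 4.67% and 3.49%. No test was possible, and these counts are too small to be read against those shares.

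Ndufs1 was highest of the members under both diets. Its log2 signals were 11.98 in the knockout CR heart and 11.81 in the knockout AL heart, against 11.14 in the control CR heart and 10.87 in the control AL heart. Both knockout hearts lay above both control hearts, by 0.84 under CR and 0.94 under AL. With the local background subtracted the values turned to -0.89 under CR and -0.69 under AL. The brightness around this spot was 84.9% and 84.5% of the spot's own in the knockout CR and AL hearts, and 43.2% and 41.3% in the control CR and AL hearts.

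Both knockout hearts lay above both control hearts for 6 of the 33 genes, against 26.8% of all genes: Ndufs1, Ndufv1, Ndufa9, Ndufa10, Ndufs7 and Ndufb10. Ndufv1 was at 0.40 under CR and 0.57 under AL, which became -0.50 under CR and 0.31 under AL with the local background subtracted. Ndufa9 was at 0.45 under CR and 0.49 under AL. Ndufa10, an accessory subunit of the proximal arm, had 13.18 in the knockout CR heart and 13.15 in the knockout AL heart, against 12.77 in the control CR heart and 12.61 in the control AL heart. Its values were 0.42 under CR and 0.54 under AL, and the AL value was -0.13 with the local background subtracted. Ndufs7, which carries the last iron-sulfur cluster before ubiquinone, was at 0.41 under CR and 0.32 under AL. Subtraction of the local background gave 1.39 under both diets, and median scaling 0.01 under CR and -0.08 under AL.

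Both knockout hearts lay below both control hearts for 12 of the 33 genes, against 24.6% of all genes. These were Ndufs8, Ndufv2, Ndufb4, Ndufb7, Ndufb9, Ndufb11, Ndufa1, Ndufa3, Ndufa6, Ndufa7, Ndufa12 and Ndufc1. Ndufs8, a core iron-sulfur subunit of the Q module, had 10.37 in the knockout CR heart and 10.42 in the knockout AL heart, against 10.89 in the control CR heart and 10.99 in the control AL heart. Its values were -0.53 under CR and -0.57 under AL. Subtraction of the local background gave -1.78 and -1.58, and median scaling -0.73 and -0.77.

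Ndufb4, with the log2 signals given above, was at -0.53 under CR and -0.65 under AL. The genotypes nearly met: the knockout CR heart, at 12.14, was just under the control AL heart, at 12.23. With the local background subtracted the values became 2.20 under CR and 1.94 under AL. The brightness around the Ndufb4 spot was 67.5% and 77.9% of the spot's own in the knockout CR and AL hearts, and 95.8% and 97.1% in the control CR and AL hearts.

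Ndufb11 was at -0.36 under CR and -0.74 under AL. Around its spot the brightness was 100.8% and 104.1% of the spot's own in the knockout CR and AL hearts, and 46.5% and 47.9% in the control CR and AL hearts, so that subtraction left no signal in the knockout hearts. Ndufv2 had 13.30 in the knockout CR heart and 13.41 in the knockout AL heart, against 13.68 in the control CR heart and 13.74 in the control AL heart. Its values were -0.38 under CR and -0.33 under AL. Ndufa4 was at -0.24 under CR and -0.44 under AL, and Ndufa7 at -0.19 and -0.41. The second Ndufs5 probe was at -0.41 under CR and -0.42 under AL, where the brighter one was at -0.05 and 0.07.

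By module, the N module had medians of 0.11 under CR and 0.02 under AL, and the Q module of -0.09 and 0.09. The proximal membrane arm was at -0.04 and -0.06, and the distal membrane arm at -0.16 and -0.28. The 6 core genes measured ran from -0.53 for Ndufs8 to 0.84 for Ndufs1 under CR, with 3 above 0, and from -0.57 to 0.94 under AL, with 4 above 0. With the local background subtracted, the N module had -0.53 under CR and -0.69 under AL, the Q module 0.21 and 0.50, the proximal arm 0.03 and -0.19, and the distal arm 0.11 and -0.07, so that all 4 medians changed sign under CR, and that of the N module under AL. Core and accessory genes lay on both sides of 0. Of the 33 genes, 9 were above 0 under both diets, 17 below 0 under both and 7 changed sign, against 38.6%, 35.4% and 26.0% of all genes. The values of the diets come from different hearts but share the arrays.

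**Figure D3:**
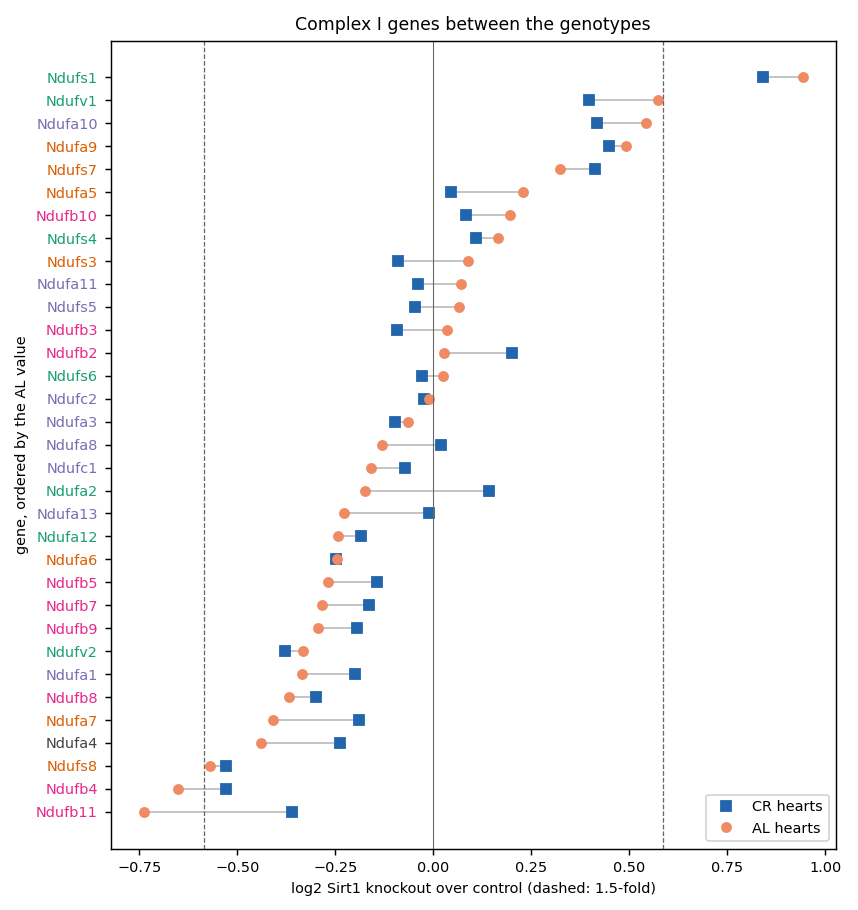
Log2 knockout over control of each complex I gene under CR (squares) and AL (circles), ordered by the AL value, with dashed lines at 1.5-fold and names coloured by module as in the plot of values by heart. Ndufs1 stands alone past the upper line, and Ndufb11 and Ndufb4 pass the lower line under AL only.

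The brightness around the spots limits these genotype values. Over the 30 bright members its median share of the spot's own brightness was 62.5% in the knockout CR heart and 65.2% in the knockout AL heart, against 49.2% in the control CR heart and 43.2% in the control AL heart. Over the other 1605 bright genes it was 61.8% and 61.5% in the knockout hearts, against 58.4% and 53.1% in the control hearts. With subtraction, 19 of 33 members were past the fold under CR and 17 under AL, where 21.6% and 19.2% of all genes were, and 67.6% and 67.0% of the other bright genes. Subtraction changed the sign of 11 of the 33 knockout over control values under CR and of 9 under AL, and of 15 of the CR over AL values in the knockout hearts and 7 in the control hearts. How often it changed the sign of other genes is not given here, so these counts are not particular to complex I. The part of the brightness around the spots in the results was not tested beyond this recalculation.

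The Sirt1 probe read 7.51 (log2) in the knockout CR heart and 7.07 in the knockout AL heart, against 7.53 in the control CR heart and 7.11 in the control AL heart. No source used here places this probe relative to the deleted exons, so that it cannot check the genotype. All 9 cardiomyocyte markers on the array were detected in every heart, with summed signals of 172850 and 162140 scanner units in the knockout CR and AL hearts, against 174450 and 168030 in the control CR and AL hearts. Their median knockout over control value was 0.19 under CR and 0.28 under AL. Summed fibroblast markers, 7 of 7 detected, were 2586 and 3071 in the knockout CR and AL hearts, against 2761 and 3101 in the control CR and AL hearts. Of the 7, 6 were higher in the knockout hearts under each diet, but not the same 6. Col3a1 was lower under CR, at -1.09, and Dcn under AL, at -0.20. The medians were 0.16 under CR, where 1 was past the fold upward and 1 downward, and 0.49 under AL, where 3 were past it upward. Their CR over AL medians were -0.32 in the knockout hearts, where 3 were past the fold downward, and -0.21 in the control hearts. Macrophage markers, 6 of 6 detected, summed to 307 and 460 in the knockout CR and AL hearts, against 349 and 444 in the control CR and AL hearts, with CR over AL medians of -0.29 in the knockout hearts and -0.13 in the control hearts. Of these only Tyrobp was past the fold with CR, at -1.03 and -0.94. Endothelial markers, 7 of 7 detected, summed to 1306 and 1725 in the knockout CR and AL hearts, against 2299 and 2228 in the control CR and AL hearts. Their knockout over control median was -0.11 under CR, where 1 of 7 was higher and 1, Egfl7, was past the fold downward. Under AL it was -0.01, with 3 of 7 higher. The summed signals of all these markers were not scaled between the arrays. Of the liver markers, Apoa1 was detected in no heart and Alb in the control hearts only. Alb was close to the lowest detected signals there, at 5.95 against 5.88 under CR and 5.90 against 5.84 under AL. The part of cell composition in the complex I values was not tested.

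The other respiratory complexes give the setting. Of the assembly factors of complex I, 12 of 13 on the array were detected in all hearts, with CR over AL medians of 0.07 in the knockout hearts and 0.10 in the control hearts, with -0.13 in the control hearts when the local background was subtracted. Ndufaf1, which joins intermediates of the membrane arm, was the 1 factor past the fold between genotypes, at 0.70 under AL, with 0.49 under CR. Ndufab1, the mitochondrial acyl carrier protein that is also a complex I subunit, fell outside the symbol rule and was at 0.02 for CR over AL in the knockout hearts and -0.18 in the control hearts.

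The 7 genes measured for complex II, or succinate dehydrogenase, include its assembly factors Sdhaf2, Sdhaf3 and Sdhaf4. Complex II so listed had CR over AL medians of 0.11 in the knockout hearts and 0.11 in the control hearts. Its catalytic subunit Sdha had 13.44 in the knockout CR heart and 13.15 in the knockout AL heart, against 12.58 in the control CR heart and 12.03 in the control AL heart, which is 0.86 above control under CR and 1.12 under AL. Complex III had CR over AL medians of -0.32 in the knockout hearts and -0.20 in the control hearts, complex IV of -0.27 and -0.32, and ATP synthase of -0.22 and -0.31. Subtracting the local background put complex III at 0.02 in the control hearts, complex IV at -0.12 in the knockout hearts and -0.34 in the control hearts, and ATP synthase at -0.01 and -0.14. Complex IV genes were below 0 in 10 of 12 and ATP synthase genes in 13 of 17 in each genotype. The ATP synthase list includes its inhibitor Atpif1. No test sets complex I apart from the other complexes.

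**Figure D4:**
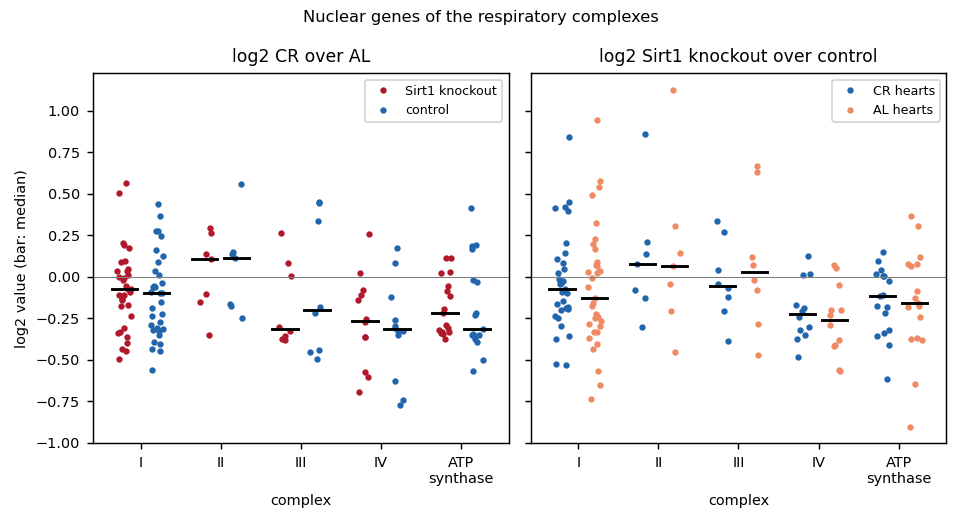
Each point is a nuclear gene listed for a respiratory complex and detected in all 4 hearts, with bars at the medians. The complex II list includes the assembly factors Sdhaf2, Sdhaf3 and Sdhaf4, and the ATP synthase list its inhibitor Atpif1. Complex I is shown without its assembly factors. The left panel gives log2 CR over AL in knockout and control hearts, the right panel log2 knockout over control under CR and AL. Complex I spreads on both sides of 0, with CR medians of -0.08 (0.01 with median centring) in the knockout hearts and -0.10 in the control hearts, while complex IV lies lower at -0.27 and -0.32.

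Among the 13 listed regulators of mitochondrial genes, Ppargc1a, the PGC-1 coactivator, was higher with CR by 0.51 in the knockout hearts and by 0.49 in the control hearts, and higher in knockout than in control hearts by 0.41 under CR and 0.39 under AL. After subtraction of the local background CR over AL was 0.42 in the knockout hearts and 0.12 in the control hearts, and knockout over control was 1.57 under CR and 1.27 under AL. Its log2 signals were 9.49 in the knockout CR heart and 8.99 in the knockout AL heart, against 9.08 in the control CR heart and 8.59 in the control AL heart. Esrra, the estrogen-related receptor alpha, was near 0 with CR, at 0.02 and 0.03, and lower in knockout hearts, at -0.45 under CR and -0.44 under AL. Nrf1 was at 0.09 in the knockout hearts and -0.06 in the control hearts. The 13 regulators had CR over AL medians of -0.06 and 0.03, and none was past the fold in any comparison.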

How the data were processed

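Signals of 2 arrays were used, 1 of the knockout pair and 1 of the control pair. The scanner files hold each spot's median intensity in the Cy3 and Cy5 channels and the intensity around it, deposited without background correction, per the file headers. Per the labels, a normalized log2 ratio (CR over AL) is what the authors gave in their deposited value table. How they normalized it was not stated, but after a constant of 0.144 on the knockout array and 0.359 on the control array it matched blank-subtracted scanner ratios within 0.001 for 16554 of 16555 and 17404 of 17405 values, so its scale and direction are settled.

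Spot intensities were corrected with normexp (offset 50, no local background) and loess within each array in limma 3.58.1 (R 4.3.3). Channels were compared between arrays after Aquantile normalization. A spot counted as detected above the blanks' 5% trimmed mean by 2 SD, which held for 74.0% to 80.7% of probes in a heart. Of 16631 probes with 1 symbol, 3947 symbols were updated through GRCm38.p6 gene names and 62 had no match. Every member is counted. Values in all hearts were given for members past the fold and for the 3 highest and 3 lowest of each comparison. No test was possible with 1 heart per condition. The members and lists were chosen with earlier results of these data known, and the alternatives are in the closing section. The number of arrays limits the precision. The steps were tested on simulated data. The NRF1 motif was shortened by 1 base after a first search, and the longer form matched the same 6 genes and 3.74% of all windows.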

Additional observations from a re-analysis of the deposited data

How the results depend on the processing

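No paired analysis was possible because each condition had 1 heart and the comparisons have no test. For the same reason no replicate could be left out. Subtracting the local background moved most values: the members' median was 0.04 for CR over AL in the knockout hearts and -0.31 for knockout over control under AL, and the members past the fold numbered 10 (CR over AL, knockout), 7 (CR over AL, control), 10 (the difference between these), 19 (knockout over control, CR) and 17 (knockout over control, AL). Of all genes, 3.49%, 2.29%, 5.47%, 21.6% and 19.2% were past it in that order. Of the other 1605 genes of the brightest 10%, where most members lie, 19.6%, 13.5%, 27%, 67.6% and 67% were. The members' counts include genes left without signal by the subtraction, Ndufb11 in the knockout hearts and Ndufa13 in the control CR heart. Of the members past the fold before, Ndufs1 turned to -0.89 under CR and -0.69 under AL, and Ndufb4 to 1.94 under AL. Of members under the fold many more changed sign, Ndufb4 under CR (2.20) among them, as counted with the results. The brightness around these spots is given with the results, and the cause was not tested. Centring each array on its median in place of loess gave 0.01 and 1 gene for CR over AL in the knockout hearts (1.6% of all genes). The authors' deposited table gave 1 gene past the fold in the knockout hearts (13.9% of all genes), a median of -0.30 and 4 genes in the control hearts (13.3%), and 0.24 and 1 gene for the difference (13.3%). Median scaling between the arrays gave -0.35 and 5 genes under CR (3.24% of all genes) and -0.33 and 10 genes under AL (4.95%). An offset of 0 gave 1 gene past the fold in the control hearts (6.06% of all genes). Adding Ndufv3 and Ndufa4l2, whose probes carry older names, was chosen after the data were seen and also gave 1, which was Ndufv3 at -0.61, with medians of -0.15 for CR over AL in the control hearts and -0.06 for knockout over control under AL. Without the detection filter, with genes at or above the median signal alone, without Ndufa4, and without genes near the scanner limit (there were 0), every median stayed within the control-spot SD and every count within 1.5 times.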

Other observations

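Ndufv3, an accessory subunit of the N module that the array lists under an older name, had log2 signals of 12.97 in the knockout CR heart and 13.48 in the knockout AL heart, against 12.90 in the control CR heart and 13.52 in the control AL heart. Its CR over AL values were -0.51 in the knockout hearts and -0.61 in the control hearts, and its knockout over control values 0.07 under CR and -0.03 under AL. Ndufa4l2, a paralog of Ndufa4 also listed under an older name, was at -0.28 and -0.17 for CR over AL in the knockout and control hearts.

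Of 5722 other genes at or above the median signal, those whose 4 hearts were closest to the members' median profile were Srgap3, Mbd6, Timm50, Slc39a3 and Scap, at Euclidean distances of 0.015 to 0.023 on the log2 scale. The profile has 4 points, and the likeness is a description.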
